A study of Mus musculus with 2 samples.

Results

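Dlx1, Dlx2, Dlx5, Dlx6, Prrx1, Prrx2, Twist1, Alx1 and Hand2 are transcription factor genes known from the mesenchyme of the pharyngeal arches. These 9 genes were followed here among the 18131 genes measured by scRNA-Seq in tissue that holds the cardiac neural crest of the mouse. They were taken by name, with earlier results of these data known. The tissue ran from the level of the otic placode back to the 4th somite of C57BL/6 embryos at E9.5, and the comparison asked what is altered when Prdm6 is lost from the Wnt1 lineage. WT embryos were Prdm6+/+; Wnt1-Cre2; ZsGreen1 and KO embryos were Prdm6f/f; Wnt1-Cre2; ZsGreen1, so both genotypes carried the Cre transgene and the green reporter. Wnt1-Cre2 acts in the dorsal neural tube and the neural crest that leaves it, no sorting of green cells was described, and cells of other lineages kept an intact Prdm6 gene in both genotypes. Embryos were pooled and there was 1 library per genotype, with no map from cells to embryos, so nothing below has a replicate check and no test was made. Fewer cells of a type and less RNA per cell cannot be told apart in values taken over all cells.

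Dlx genes encode homeodomain proteins and lie in the genome as pairs. In the first pharyngeal arch, Dlx1 and Dlx2 are known to be active along the whole arch, whereas Dlx5 and Dlx6 are active in its ventral part, where endothelin signaling also maintains Hand2. Prrx1, Prrx2 and Alx1 encode paired-related homeodomain proteins of craniofacial and limb mesenchyme, and Twist1 and Hand2 encode bHLH proteins, Twist1 being needed in cranial mesenchyme and Hand2 in the arches, heart and limb. Several of these genes are also known outside the neural crest: Dlx5 in the otic and surface ectoderm, Twist1 and the Prrx genes in mesoderm, and Hand2 in the heart.

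The positions below follow GENCODE vM21 on GRCm38. Dlx1 (ENSMUSG00000041911, chr2:71528113-71533981, plus strand) and Dlx2 (ENSMUSG00000023391, chr2:71543408-71546754, minus strand) face each other across 9426 bases. Dlx6 (ENSMUSG00000029754, chr6:6863334-6868568, plus strand) and Dlx5 (ENSMUSG00000029755, chr6:6877805-6882085, minus strand) do so across 9236 bases. Prrx1 (ENSMUSG00000026586) lies at chr1:163245119-163313710 on the minus strand and Prrx2 (ENSMUSG00000039476) at chr2:30834972-30881251 on the plus strand. Twist1 (ENSMUSG00000035799) lies at chr12:33957671-33959829 on the plus strand, Alx1 (ENSMUSG00000036602) at chr10:102998707-103030215 on the minus strand and Hand2 (ENSMUSG00000038193) at chr8:57320983-57324633 on the plus strand. The longest transcript of each gene has between 2 and 5 exons. The upstream sequences of Dlx2 and Hand2 are shown because these genes stood on opposite sides of equality between KO and WT below. Each is the 250 bases before the start of the gene in RefSeq (GRCm38.p6), written 5′ to 3′ on the strand of the gene. Capitals mark every match to CANNTG, the E-box that bHLH proteins bind, and to TAATTA, a core bound by many homeodomain proteins; both patterns read the same on either strand.
Dlx2, chr2:71546755-71547004, minus strand: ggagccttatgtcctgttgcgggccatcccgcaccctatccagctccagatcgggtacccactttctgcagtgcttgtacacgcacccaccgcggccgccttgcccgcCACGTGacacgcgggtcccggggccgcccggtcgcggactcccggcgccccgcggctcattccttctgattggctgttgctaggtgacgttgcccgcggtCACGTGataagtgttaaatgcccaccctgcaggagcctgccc
Hand2, chr8:57320733-57320982, plus strand: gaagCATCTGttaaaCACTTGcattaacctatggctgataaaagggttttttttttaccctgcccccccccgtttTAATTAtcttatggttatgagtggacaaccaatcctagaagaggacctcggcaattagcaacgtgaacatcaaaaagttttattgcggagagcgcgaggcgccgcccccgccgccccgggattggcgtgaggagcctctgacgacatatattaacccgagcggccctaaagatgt
Dlx2 held 2 matches to CANNTG, both with the letters CACGTG, and 0 to TAATTA. Hand2 held 2 matches to CANNTG and 1 to TAATTA, and the same stretch of Twist1 held 0 of either. Over 32851 promoters of the same length, 66.2% held CANNTG, 6.02% held CACGTG and 4.84% held TAATTA. These are matches of letters, and binding was not measured.

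There were 11958 WT and 9765 KO cells, with median depths of 1597 and 1703 unique molecular identifiers (UMIs). Levels are UMIs per 1000000 UMIs (CPM) summed over the library, or over the cells named, with exact 95% intervals that cover counting error only. Prdm6 itself gave 104 UMIs in WT and 59 in KO (5.00 and 3.12 CPM). UMIs from the 3′ end do not separate a deleted from an intact allele. The libraries shared 26 cell barcodes. Cells were assigned to 14 groups, or gates, by marker genes among which were none of the 9 genes, and 55.5% of WT and 58.8% of KO cells met no gate or tied between gates. A gate kept a cell type name with "-like" where at least 3 of its 5 held-out check markers were at least 2-fold higher than in other cells of both libraries, and otherwise is called by its genes. In the gate set up for arch mesenchyme (Tfap2a or Tfap2b with Pdgfra or Ednra and no epithelial marker), 0 of 5 check markers met this, so it is called here the Tfap2 and Pdgfra or Ednra gate. It held 47 WT and 55 KO cells.

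Over all cells, 3 of the 4 Dlx genes were past 1.5-fold higher in KO than in WT, and none of the other 5 genes was past 1.5-fold in either direction. A gene was counted as past the fold where KO over WT was at least 1.5-fold in either direction and both libraries together held at least 100 UMIs. The 3 of 9 genes were Dlx1, Dlx5 and Dlx6, and 0 were past 1.5-fold lower, beside 0.613% of all 11744 genes with enough UMIs higher and 2.75% lower. Of the 11744 genes, 8992 held at least 400 UMIs, which Dlx1, Dlx5 and Dlx6 did not, and 0.211% of those 8992 were higher. Among genes below 400 UMIs the share higher was thus above 0.613%. The median log2 ratio was 0.07 over the 9 genes and -0.06 over all genes.

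**Figure D1:**
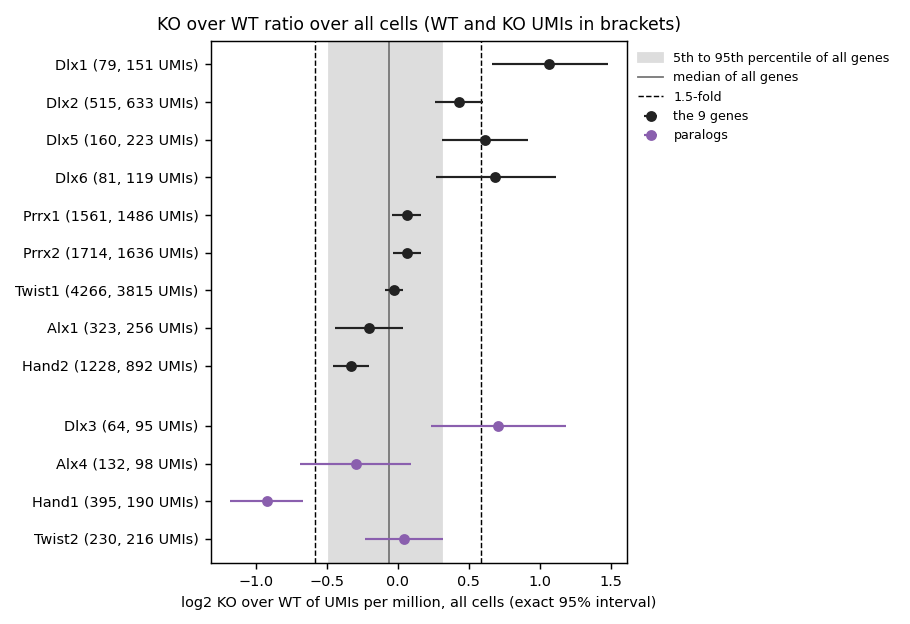
The log2 ratio of KO over WT over all cells is on the x axis, with 1 point per gene and its exact 95% interval, for the 9 genes and below them 4 of 5 measured paralogs; the grey band holds the middle 90% of all genes and dashed lines mark 1.5-fold. Dlx1, Dlx5, Dlx6 and Dlx3 lie to the right of the upper 1.5-fold line, and among the genes drawn Hand1 lies to the left of the lower one.

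Dlx1 had 79 UMIs in WT and 151 in KO (3.80 and 7.97 CPM). Its log2 ratio of 1.07 (0.67 to 1.48) was exceeded by 11 of 11744 genes. Dlx2, its neighbour on chromosome 2, had 515 UMIs in WT and 633 in KO (24.8 and 33.4 CPM), a log2 ratio of 0.43 (0.26 to 0.60) that stayed under 1.5-fold and was exceeded by 219 genes. Dlx5 had 160 and 223 UMIs (7.70 and 11.8 CPM), with a log2 ratio of 0.61 (0.31 to 0.92). Dlx6 had 81 and 119 UMIs (3.90 and 6.28 CPM), with a log2 ratio of 0.69 (0.27 to 1.11). All 4 intervals lay above 0, that of Dlx1 lay clear of that of Dlx2, and all other pairs overlapped. The counts were spread over many cells: no cell held more than 7 UMIs of a Dlx gene, and the share of UMIs from the 10 richest cells ran from 8.16% in WT and 8.85% in KO for Dlx2 to 24.7% and 19.3% for Dlx6.

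Prrx1 had 1561 UMIs in WT and 1486 in KO (75.1 and 78.5 CPM; log2 ratio 0.06, -0.04 to 0.17). Prrx2 had 1714 and 1636 UMIs (82.5 and 86.4 CPM; log2 ratio 0.07, -0.03 to 0.17). Twist1 had 4266 and 3815 UMIs (205 and 201 CPM; log2 ratio -0.03, -0.09 to 0.04). For these 3 genes counting error left room for a difference of no more than 0.17 on the log2 scale. Alx1 had 323 and 256 UMIs (15.5 and 13.5 CPM), with a log2 ratio of -0.20 (-0.44 to 0.04). For Hand2 there were 1228 UMIs in WT and 892 in KO (59.1 and 47.1 CPM). Its log2 ratio of -0.33 (-0.45 to -0.20) stayed under 1.5-fold, with an interval below 0.

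Marker genes of other cell types differed between the libraries in the same comparison. The summed level of 7 cardiac muscle markers was 1853 CPM in WT and 1374 in KO (log2 ratio -0.43, with 7 of 7 markers lower), that of 6 Gata4 and Foxf1 group markers was 382 and 297 CPM (-0.36, 5 of 6 lower), and that of 5 globin genes was 14007 and 7236 CPM (-0.95, 5 of 5 lower). The 6 migrating neural crest markers summed to 148 and 134 CPM (-0.15, 6 of 6 lower), and the 7 surface ectoderm markers to 106 and 118 CPM (0.15, 4 of 7 higher). In none of these lists was a marker at 0 UMIs. Their part in the ratios of the 9 genes was not tested. With erythroid-like and cardiac muscle-like cells left out, the log2 ratio of Hand2 was -0.26 and that of Dlx1 was 1.09, whereas Dlx6 came to 0.58, just under the 1.5-fold line.

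The 9 genes were not all highest in the same gate. Whether arch mesenchyme suits them as a common label could not be decided. The gate set up for it met 0 of 5 check markers and held 47 WT and 55 KO cells. Dlx2 was highest in the Tfap2 and Pdgfra or Ednra gate and in migrating NCC-like cells, Twist1 and Prrx1 were high in the first of these and in the Foxd1, Meox1 and Tbx1 gates, and Hand2 was highest in cardiac muscle-like cells and the Gata4 and Foxf1 group. Erythroid-like cells, which should lack all 9, served as a measure of RNA that floats free between droplets; their median depth was 2020 UMIs in WT and 2456 in KO.

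**Figure D2:**
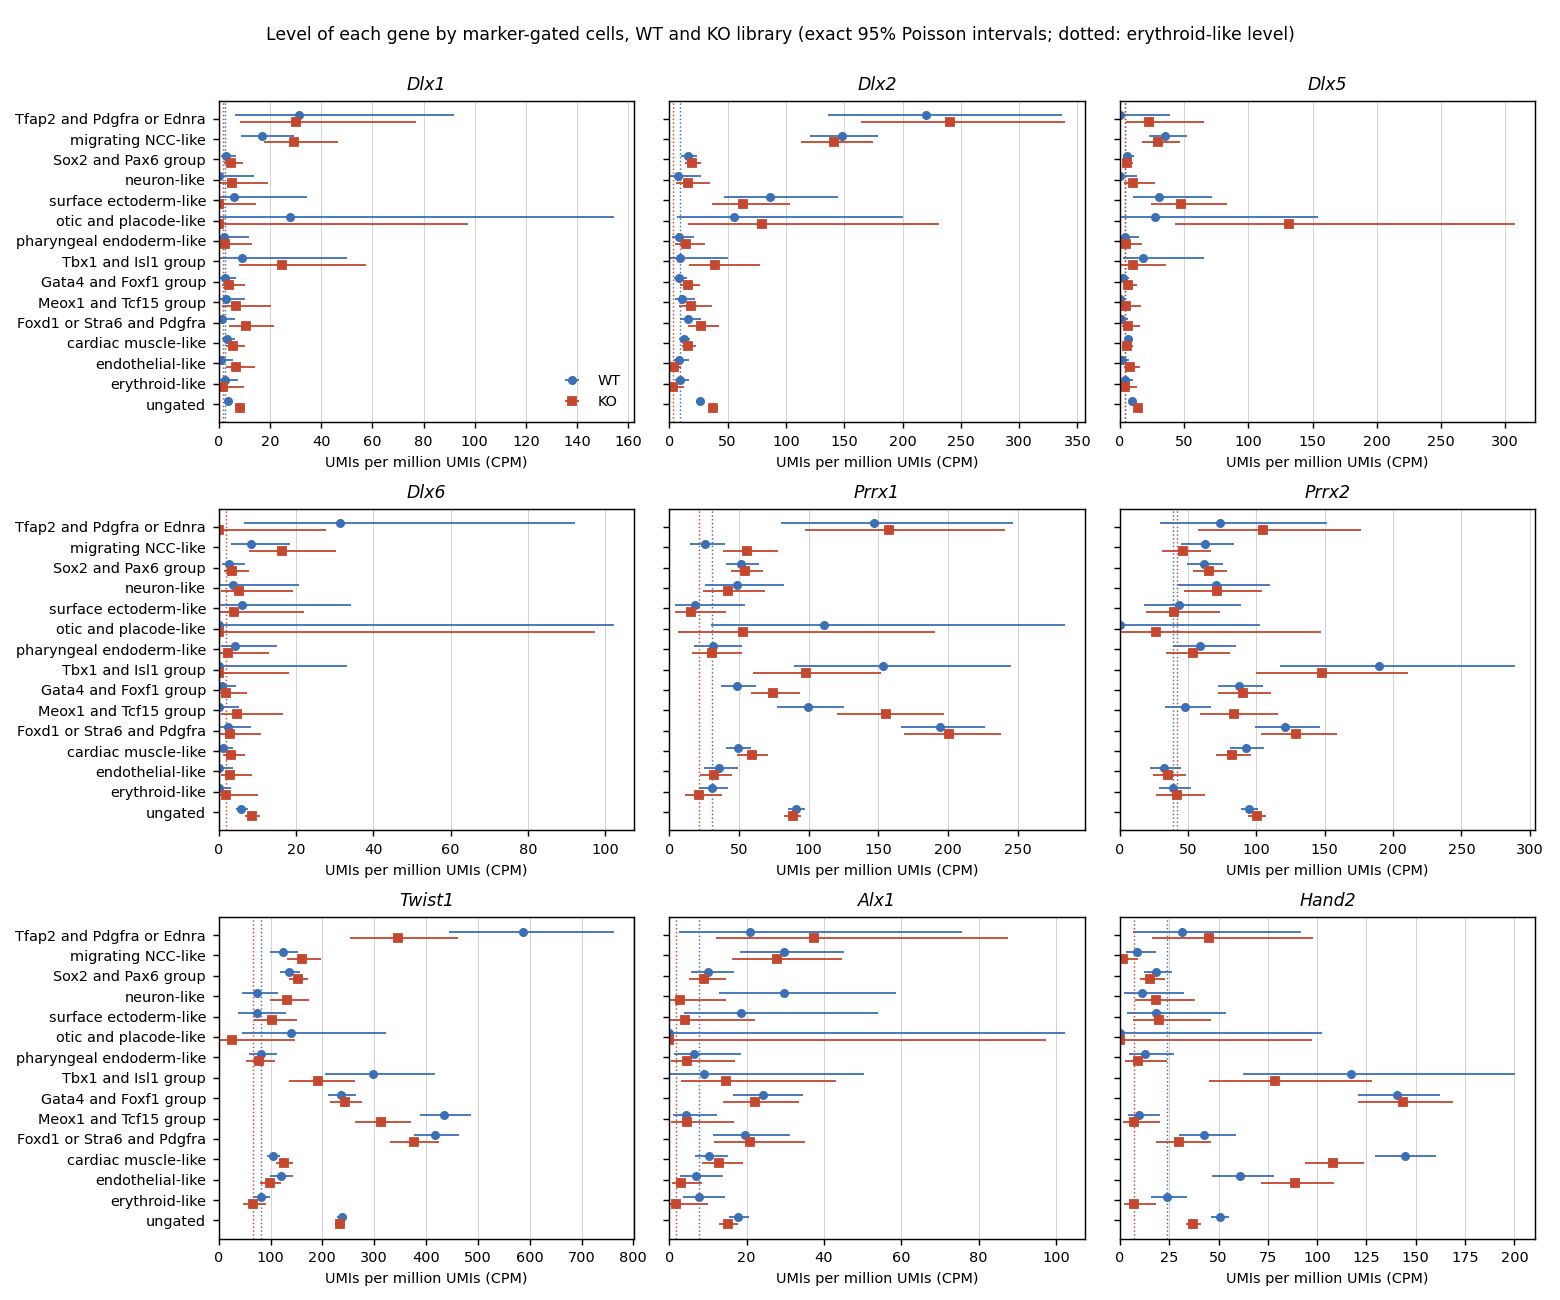
Each panel shows 1 gene, with its level in CPM on the x axis for each marker gate in the WT (circles) and KO (squares) library, exact 95% Poisson intervals, and dotted lines at the erythroid-like level. Dlx2 peaks at 220 and 240 CPM in the Tfap2 and Pdgfra or Ednra gate, Twist1 and Prrx1 stay high over several mesenchymal gates, and Hand2 peaks in the cardiac muscle-like and Gata4 and Foxf1 rows.

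Dlx2 reached 220 CPM in WT (136 to 337) and 240 in KO (164 to 339) in the Tfap2 and Pdgfra or Ednra gate, from 21 and 32 UMIs. In these Tfap2-positive cells the UMIs of the other 3 Dlx genes were few, with 3 and 4 of Dlx1, 0 and 3 of Dlx5 and 3 and 0 of Dlx6. Migrating NCC-like cells, the gate of Sox10, Foxd3 and related crest genes, followed with 148 CPM of Dlx2 in WT (121 to 179) and 141 in KO (113 to 175). Surface ectoderm-like cells held 86.2 and 63.5 CPM, and their intervals overlapped those of migrating NCC-like cells in WT but not in KO. In the other gates with at least 50 cells Dlx2 lay between 7.43 and 16.2 CPM in WT and between 3.61 and 39.4 in KO, where the erythroid-like level was 9.31 and 3.61 CPM. A Dlx2 UMI was found in 24.1% of WT and 30.4% of KO migrating NCC-like cells, against 1.95% and 0.913% of erythroid-like cells.

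Among gates of at least 50 cells, Dlx5 was highest in migrating NCC-like and surface ectoderm-like cells, the latter from 5 UMIs in WT and 12 in KO. Ungated cells held 56.9% of the Dlx5 UMIs in WT and 60.5% in KO. The level of Dlx5 was 35.2 CPM in WT (22.8 to 52.0) and 29.6 in KO (17.5 to 46.8) in migrating NCC-like cells. In surface ectoderm-like cells it was 30.8 (9.99 to 71.8) and 47.7 (24.6 to 83.2). These 2 gates were not told apart in either library. Otic and placode-like cells, only 14 in WT and 13 in KO, held 1 and 5 UMIs of Dlx5. Dlx6 was highest in migrating NCC-like cells among gates of at least 50 cells, with 6 UMIs in WT and 10 in KO (8.45 and 16.4 CPM). That order was lost in both libraries with 1 more marker required and with thinning before gating, so no leading gate can be given for Dlx6. Dlx1 had 12 and 18 UMIs in migrating NCC-like cells (16.9 and 29.6 CPM) against 1 and 0 in surface ectoderm-like and 3 and 1 in erythroid-like cells.

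Within gates, the KO over WT ratios of the Dlx genes were smaller or less certain than over all cells. In migrating NCC-like cells the log2 ratio of Dlx2 was -0.06 (-0.49 to 0.36) and that of Dlx5 was -0.25 (-1.21 to 0.68). Dlx1 was past 1.5-fold higher there, at 0.81 (-0.32 to 2.00), as were 5.25% of all genes with at least 30 UMIs in that gate, and its interval held 0. In surface ectoderm-like cells the log2 ratio of Dlx2 was -0.44 (-1.57 to 0.71). Dlx2 was past 1.5-fold higher in the Foxd1 or Stra6 and Pdgfra gate, from 14 and 18 UMIs (0.74, -0.35 to 1.86), beside 4.88% of genes. The cells outside all gates, with median depths of 1336 UMIs in WT and 1435 in KO, held 48.1% to 71.6% of the UMIs of each Dlx gene, and there the ratios were 1.12 (0.55 to 1.72) for Dlx1, 0.54 (0.31 to 0.78) for Dlx2, 0.62 (0.23 to 1.02) for Dlx5 and 0.57 (0.07 to 1.08) for Dlx6. In those cells 1.57% of 12438 genes were past 1.5-fold higher.

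Cells were therefore also split by whether they held a UMI of 6 crest markers (among them Sox10, Foxd3, Erbb3 and Ngfr) or of 3 epithelial markers (Epcam, Cdh1, Esrp1), a split chosen after the values above had been seen. With all UMIs, the ratio was largest in cells with neither. Their summed level of the 4 Dlx genes was 24.6 CPM in WT (390 UMIs) and 40.9 in KO (569 UMIs), a log2 ratio of 0.73 (0.54 to 0.92). Cells with crest markers only held 106 and 147 CPM (0.47, 0.23 to 0.71), cells with epithelial markers only 47.7 and 57.6 CPM (0.27, -0.15 to 0.71), and cells with both 128 and 135 CPM (0.07, -0.32 to 0.47). With each cell thinned to 1000 UMIs, the ratio was 0.69 (0.46 to 0.93) in cells with neither, 0.25 (-0.19 to 0.70) with crest markers only, 0.81 (0.11 to 1.53) with epithelial markers only and -0.36 (-1.44 to 0.67) with both. In crest-only cells Dlx1 had a log2 ratio of 1.02 (0.34 to 1.72), Dlx2 of 0.43 (0.15 to 0.71) and Dlx5, from 24 and 23 UMIs, of 0.06 (-0.83 to 0.95), with overlapping intervals. After thinning, Dlx1 had 0.45 (-0.999 to 1.93) and Dlx2 0.24 (-0.28 to 0.75) there, and both intervals held 0. Dlx5 was highest in cells with both kinds of marker, at 53.2 CPM in WT and 69.1 in KO, and in these cells 6 otic markers (Pax2, Pax8, Oc90, Fbxo2, Hmx2, Hmx3) gave 168 and 129 UMIs (203 and 146 CPM), against 80 and 40 UMIs in crest-only cells.

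**Figure D3:**
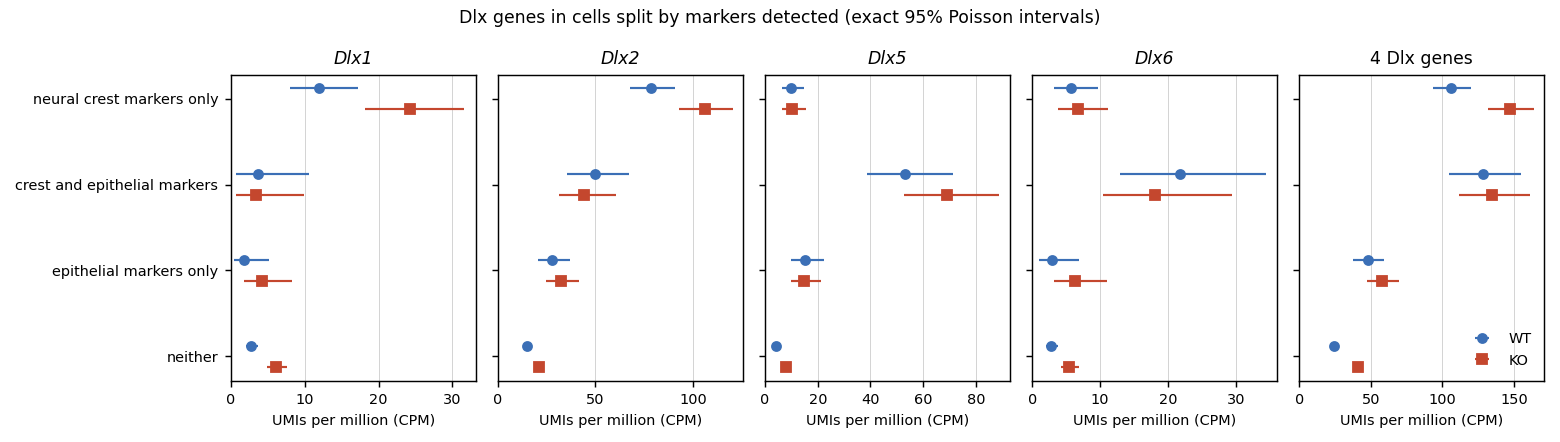
Panels show the level (CPM, x axis, exact 95% Poisson intervals) of each Dlx gene and of the 4 together in WT (circles) and KO (squares) cells that hold crest markers only, crest and epithelial markers, epithelial markers only or neither. The KO squares sit right of the WT circles for all 4 genes in cells with neither, and Dlx5 and Dlx6 are highest in cells with both.

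Cells with at least 1 Dlx UMI numbered 617 in WT (5.16%, 4.77 to 5.57) and 801 in KO (8.20%, 7.67 to 8.76). Thinned to 1000 UMIs they made up 3.26% (2.93 to 3.61) and 4.74% (4.33 to 5.18). Of the Dlx cells, 27.2% in WT and 23.0% in KO held crest markers only, against 10.2% and 10.5% of all cells, although their median depth of 1993 and 2285 UMIs was above that of all cells. At least 2 of the 4 Dlx genes were seen in 55 WT and 90 KO cells, and all 4 in 3 WT cells and 1 KO cell. Most Dlx cells held a single UMI, as did 79.7% of WT and 79.9% of KO cells with Dlx2.

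Dlx genes were seen together over all cells, but cells with Dlx1 or Dlx2 showed no clear excess of Dlx5 or Dlx6 within migrating NCC-like cells. A UMI of Dlx5 or Dlx6 was present in 7.57% of WT cells with Dlx1 or Dlx2 (5.30 to 10.4) and in 1.46% of the other WT cells, and in KO the shares were 8.41% (6.24 to 11.0) and 2.63% (2.31 to 2.98). After thinning they were 3.29% against 0.985% in WT and 4.84% against 1.58% in KO. Dlx6 was seen in 8.39% of WT cells with Dlx5 and 0.499% of those without, and in 7.54% and 0.941% in KO. Dlx2 was seen in 28.9% of cells with Dlx1 in each library and in 3.14% of WT and 4.40% of KO cells without; after thinning, with 3 and 7 such cells, the shares were 8.82% against 1.98% and 10.4% against 2.54%, and the WT intervals overlapped. Within migrating NCC-like cells the same shares of Dlx5 or Dlx6, with Dlx1 or Dlx2 and without, were 7.69% (6 of 78 cells) and 7.41% in WT and 2.90% (2 of 69 cells) and 13.1% in KO.

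The shares of cells with Hand2 overlapped within counting error between Dlx cells and others. Hand2 was seen in 7.46% of WT Dlx cells (5.51 to 9.82) and 8.39% of other WT cells, in 6.24% (4.67 to 8.15) and 7.02% in KO, and after thinning in 3.19% against 5.22% and 2.19% against 3.76%. In cells with Dlx5 or Dlx6 it was seen in 9.90% (6.15 to 14.9) against 8.31% of other WT cells and in 9.34% (6.25 to 13.3) against 6.88% in KO, with overlapping intervals. In cells with Dlx6 it was seen in 15.5% of WT cells (11 of 71) against 8.29% and in 12.4% of KO cells (13 of 105) against 6.89%, where the intervals also overlapped. After thinning only 2 WT and 4 KO cells held both, 5.26% against 5.15% and 6.78% against 3.66%, with overlapping intervals. Twist1 was seen in 28.0% of WT Dlx cells and 25.3% of others, with overlapping intervals, and in 35.2% (31.9 to 38.6) and 27.9% (26.9 to 28.8) in KO. After thinning the KO shares were 19.3% and 17.8% and their intervals overlapped. For single Dlx genes with all UMIs, the WT intervals were clear for Dlx2 alone, at 34.2% (29.5 to 39.1) against 25.2%. In KO the Dlx2 shares were 40.8% (36.3 to 45.5) and 27.9%. Prrx2 was seen in 17.2% of WT Dlx cells (14.3 to 20.4) against 12.5% of others, with overlapping intervals in KO. Prrx1 was seen in 15.7% of KO Dlx cells (13.3 to 18.4) against 12.2%, with overlapping intervals in WT. Dlx cells were deeper than all cells. Prrx1 and Twist1 were seen together more often, with Twist1 in 38.9% of WT cells that held Prrx1 and 23.8% of those that did not, and in 42.4% and 26.5% in KO. After thinning these shares were 26.1% against 16.3% and 22.9% against 17.4%, with intervals clear of each other in both libraries.

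**Figure D4:**
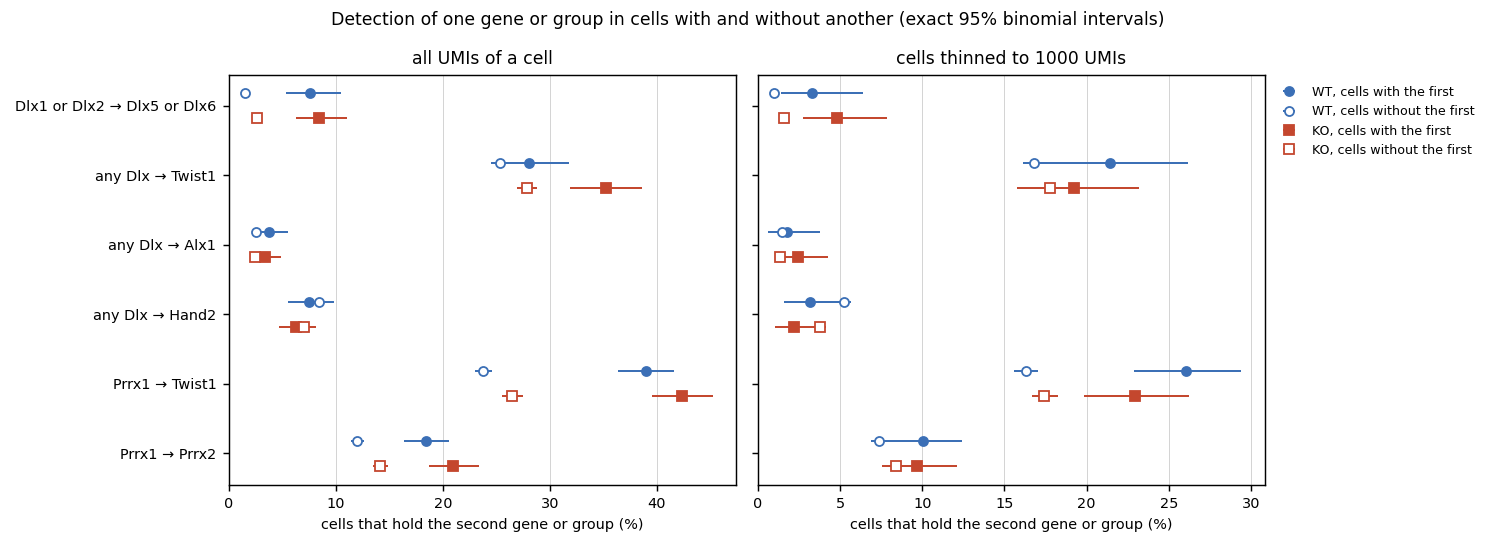
Each row gives the share of cells (%, x axis, exact 95% binomial intervals) that hold the second gene or group among cells with the first (filled) and without it (open), in WT (circles) and KO (squares), for all UMIs on the left and cells thinned to 1000 UMIs on the right. With all UMIs, filled and open points stand clear of each other for Dlx1 or Dlx2 with Dlx5 or Dlx6 and for Prrx1 with Twist1, while the intervals overlap for Dlx cells with Hand2.

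Among gates of at least 50 cells in both libraries, Prrx1 was highest in the Foxd1 or Stra6 and Pdgfra gate, at 195 CPM in WT (166 to 226) and 201 in KO (168 to 238). It was at 153 and 98.4 CPM in the Tbx1 and Isl1 group and at 99.3 and 155 CPM in the Meox1 and Tcf15 group, and it fell to 18.5 and 15.9 CPM in surface ectoderm-like cells, beside 30.5 and 21.7 CPM in erythroid-like cells. In the Tfap2 and Pdgfra or Ednra gate, where Dlx2 reached its highest levels, Prrx1 had 147 and 158 CPM and Prrx2 73.5 and 105 CPM. Prrx2 was highest in the Tbx1 and Isl1 group (189 and 148 CPM), followed by the Foxd1 or Stra6 and Pdgfra gate (121 and 129 CPM), with overlapping intervals in both libraries. With 1 more marker required or with thinning before gating, only 10 gates held at least 50 cells, and another gate was first. The Tbx1 and Isl1 group, with 59 WT and 90 KO cells, may have fallen under that minimum, so this does not show a lost lead. Among gates of at least 50 cells the lowest level of Prrx2 was 32.0 CPM in WT and 35.0 in KO, in endothelial-like cells, and the erythroid-like level was 38.9 and 41.5 CPM.

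Within gates Prrx1 was past 1.5-fold higher in 3 and lower in 1, the last within counting error. In migrating NCC-like cells it had 18 UMIs in WT and 34 in KO, past 1.5-fold higher at 1.14 (0.28 to 2.05), and its WT level of 25.3 CPM there was at the erythroid-like level. It was also past 1.5-fold higher in the Gata4 and Foxf1 group, from 62 and 74 UMIs (0.62, 0.11 to 1.13, beside 4.35% of genes there), and in the Meox1 and Tcf15 group, from 71 and 67 UMIs (0.64, 0.14 to 1.15, beside 5.56%). Prrx2 was past 1.5-fold higher in the last of these as well, from 34 and 36 UMIs (0.81, 0.09 to 1.53). In the Tbx1 and Isl1 group Prrx1 was past 1.5-fold lower from 17 and 20 UMIs (-0.64, -1.65 to 0.38, beside 9.16% of genes). That value turned to 1.27 with 1 more marker required and to 0.28 with thinning before gating, which also brought the Meox1 and Tcf15 value to 0.08.

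**Figure D5:**
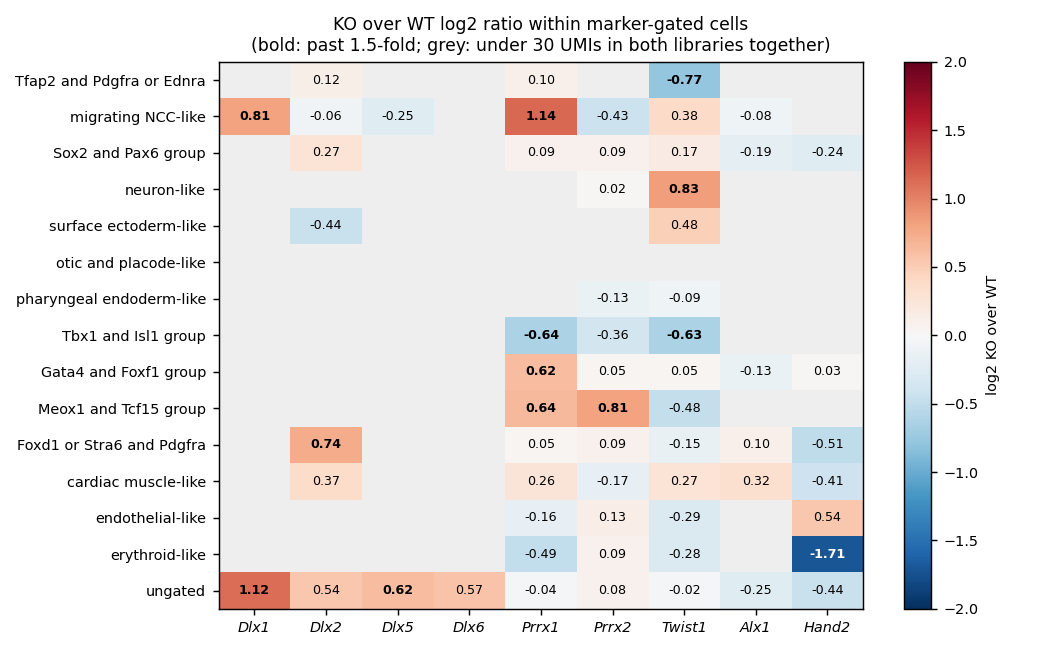
The colour and number of each cell give the log2 ratio of KO over WT for a gene (columns) in a marker gate (rows); bold numbers are past 1.5-fold and grey cells had fewer than 30 UMIs. Bold values are scattered over genes and gates, with both signs for Prrx1 and Twist1, and all 4 Dlx ratios are above 0 in ungated cells.

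Twist1 was highest in the Tfap2 and Pdgfra or Ednra gate in WT, at 588 CPM (444 to 763) from 56 UMIs, and in the same gate in KO it was at 345 CPM (253 to 461) from 46 UMIs. It was past 1.5-fold lower there (log2 ratio -0.77, -1.36 to -0.18), as were 8.81% of genes with at least 30 UMIs in that gate. In the Meox1 and Tcf15 group it had 435 CPM in WT and 313 in KO (-0.48, -0.78 to -0.18), and in the Foxd1 or Stra6 and Pdgfra gate at 418 and 376 CPM (-0.15, -0.39 to 0.09). The WT intervals of all 3 gates overlapped. In the Tbx1 and Isl1 group, with 33 and 39 UMIs, Twist1 was past 1.5-fold lower at -0.63 (-1.34 to 0.08). In neuron-like cells it was past 1.5-fold higher, from 20 to 50 UMIs (0.83, 0.06 to 1.66, beside 7.86% of genes), where the WT level of 74.3 CPM was below the erythroid-like 81.2 CPM, and with thinning before gating this value was -0.49. A Twist1 UMI was found in 15.3% of WT and 14.6% of KO erythroid-like cells, so levels near 80 CPM cannot be read as expression.

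Alx1 was sparse everywhere. Its highest levels with at least 10 UMIs in both libraries were in migrating NCC-like cells, at 29.6 CPM in WT (18.3 to 45.2) and 28.0 in KO (16.3 to 44.8), in the Gata4 and Foxf1 group at 24.3 and 22.2 CPM, and in the Foxd1 or Stra6 and Pdgfra gate at 19.6 and 21.0 CPM, all with overlapping intervals. The log2 ratios in these gates were -0.08, -0.13 and 0.10, and none was past 1.5-fold. Erythroid-like cells held 9 and 1 UMIs of Alx1.

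Hand2 was highest in WT in cardiac muscle-like cells, at 144 CPM (130 to 160) from 349 UMIs, where KO had 108 CPM (94.1 to 124) from 209 UMIs, a log2 ratio of -0.41 (-0.67 to -0.16). In the Gata4 and Foxf1 group it had 140 CPM in WT (120 to 162) and 143 in KO (121 to 169), a log2 ratio of 0.03 (-0.30 to 0.36). Endothelial-like cells stood on the other side, with 61.0 CPM in WT and 88.6 in KO (0.54, 0.06 to 1.02), under 1.5-fold. In ungated cells the log2 ratio was -0.44 (-0.64 to -0.24). Erythroid-like cells held 28 UMIs in WT and 4 in KO (23.7 and 7.22 CPM), past 1.5-fold lower at -1.71 (-3.69 to -0.20), as were 11.3% of genes in that gate. In the Tfap2 and Pdgfra or Ednra gate Hand2 had 3 and 6 UMIs, and in migrating NCC-like cells 6 and 1.

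Over the 14 gates, 9 genes gave 126 values, of which 53 rested on at least 30 UMIs. Of these 53, 7 were past 1.5-fold higher and 4 past 1.5-fold lower, beside 5.1% and 8.17% of the values of all genes over the same gates, and in 7 of these 11 the counting interval lay clear of 0.

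Levels over the 12 gates with at least 50 cells in both libraries gave 2 groupings, described by Pearson correlations of log2(CPM + 10) over the same gates and libraries. The Tfap2 and Pdgfra or Ednra gate, with 47 WT cells, was not among them. Dlx2, Twist1 and Prrx1 were all high in that gate, so the groupings do not cover it. Prrx1 and Twist1 were alike (r = 0.93; 0.85 in WT and 0.93 in KO), as were Prrx1 and Prrx2 (0.81; 0.72 and 0.83). Dlx2 and Dlx5 were alike (0.90; 0.83 and 0.78), whereas Dlx2 and Hand2 gave -0.34. Among all genes with at least 200 UMIs, those most like Prrx1 were Cdh11, a mesenchymal cadherin (0.97), Gm26523 (0.94) and AI314180 (0.93). Twist1 was most like Cdh11 (0.96), Aldh1a2, a retinoic acid synthesis enzyme (0.95), and Pdgfrb (0.94). Nearest to Hand2 were Nfib (0.91), 5033428I22Rik (0.91) and Plagl1 (0.90), and nearest to Prrx2 were Nsun4 (0.91), Dact3 (0.90) and Saal1 (0.90). Nearest to Dlx2 were Rgcc (0.92), Dlx5 (0.90) and 9130401M01Rik (0.89), and to Dlx5 Rgcc (0.91), Fgf9 (0.90) and Dlx2 (0.90). Dlx6 had Phactr1 (0.92), Gpd2 (0.91) and Pls1 (0.87), Dlx1 had Srd5a1 (0.87), Chchd5 (0.86) and Slf1 (0.86), and Alx1 had Wrap53 (0.85), Igsf11 (0.85) and Kif7 (0.84), all from the mean of both libraries. Within single libraries r was lower for several neighbours, such as 9130401M01Rik for Dlx2 (0.64 in WT and 0.37 in KO), Chchd5 for Dlx1 (0.49 and 0.44), Kif7 for Alx1 (0.89 and 0.36) and Nsun4 for Prrx2 (0.71 and 0.50). With 1 CPM added in place of 10, 19 of the 27 neighbours remained, but Dlx2 and Dlx5 were no longer among each other's nearest 3.

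Of 5 paralogs with enough UMIs, 1 was past 1.5-fold higher and 2 lower, beside 0.613% and 2.75% of all genes, with a median log2 ratio of -0.30; 4 of them are described here. Dlx3, a Dlx gene of the surface ectoderm, had 64 UMIs in WT and 95 in KO, past 1.5-fold higher at 0.70 (0.23 to 1.18). Hand1, the relative of Hand2 in the heart and extraembryonic mesoderm, had 395 and 190 UMIs, past 1.5-fold lower at -0.92 (-1.18 to -0.67). Alx4 was at -0.30 (-0.69 to 0.09) and Twist2 at 0.04 (-0.23 to 0.32). Of the antisense genes, Dlx6os1, which spans Dlx6 on the other strand, had 12 and 29 UMIs (1.41, 0.39 to 2.51), and Dlx1as, which spans Dlx1, had 7 and 5.

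In the other lists no gene was past 1.5-fold higher, beside the 0.613% of all genes higher and 2.75% lower given above. Of 6 genes of the endothelin axis (Edn1, Ece1, Ednra, Gnaq, Gna11, Mef2c), which acts upstream of Dlx5, Dlx6 and Hand2 in the ventral arch, 0 were past 1.5-fold in either direction, and their log2 ratios lay between -0.29 and 0.27 with a median of 0.10. Of 15 arch patterning genes with enough UMIs, 0 were past 1.5-fold higher and 2 lower, namely Barx1, a homeobox gene of the arches and stomach (428 and 238 UMIs, -0.71), and Foxf1, a forkhead gene of splanchnic mesoderm and itself a gate gene (612 and 356 UMIs, -0.65). Of 6 arch signal genes, 0 were higher and 2 lower, the receptor gene Notch2 (13965 and 7924 UMIs, -0.68) and the growth factor gene Fgf8 (145 and 87 UMIs, -0.60), with a list median of -0.40. Of 7 bHLH partners of Twist1 and Hand2 (Tcf3, Tcf4, Tcf12 and Id1 to Id4), 0 were past 1.5-fold, and their median was -0.15.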

How the data were processed

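Cells of the cardiac neural crest region were profiled with 3′ droplet libraries, 1 WT and 1 KO. Per the processing notes, the authors used Cell Ranger 1.3.1, Scanpy and the mm10 build; their methods name a human reference with the reporter, while the deposited symbols are mouse. They removed doublets with a caller, whether before deposit is not said, and none was run here. The deposited values are another unit than counts: square roots of UMI counts scaled to 1641 per cell. Dividing each cell's squares by the smallest nonzero one gave whole numbers within 0.01 for 100% of nonzero values, and these UMIs were used. Because they were recovered and each genotype had 1 library, no count model was run.

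UMIs were summed per library and per gate (Python 3.11.15, numpy 2.4.6, scipy 1.17.1, pandas 2.3.3). A gate needed 2 different markers for most types, 3 for cardiac muscle, or 1 from each of 2 lists; a cell went to the gate with most markers, ties to none, and cells with at least 5% globin UMIs were erythroid-like. Cells that passed several gates numbered 1273 in WT and 964 in KO. Ratios have exact conditional intervals, levels exact Poisson and shares exact binomial (Clopper-Pearson) intervals, all of 95%. Thinning to 1000 UMIs left out 1361 WT and 125 KO cells. Genes were named as follows: the 9 genes, paralogs and antisense genes, up to 3 genes per list and direction past 1.5-fold, and the 3 genes nearest in pattern. The members and lists were chosen with earlier results of these data known. The rule by which gates kept a type name was set after the data were seen. Scripts were tested on simulated data. The rule was not followed in full, since some paralogs, past the fold or not, and markers are not reported here. Dlx4 and the antisense genes Dlx4os, Dlx6os2 and Hand2os1 were not analysed here. Promoters were found for 6 of the 9 genes; Dlx5, Dlx6 and Alx1 had none. Alternatives were other scalings, thinning, stricter gates and other folds.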

Additional observations from a re-analysis of the deposited data

Results flagged for a closer look

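Within the same contrast of KO over WT, 2 of the 6 genes with at least 30 UMIs in 2 or more gates were past 1.5-fold in opposite directions in different marker gates, as were 8.96% of all 9242 such genes. The log2 ratio of Prrx1 was 1.14 in migrating NCC-like cells, 0.62 in the Gata4 and Foxf1 group and 0.64 in the Meox1 and Tcf15 group, and -0.64 in the Tbx1 and Isl1 group. That of Twist1 was 0.83 in neuron-like cells and -0.63 in the Tbx1 and Isl1 group, and it was also lower, at -0.77 (-1.36 to -0.18), in the Tfap2 and Pdgfra or Ednra gate. The intervals of both Tbx1 and Isl1 values held 0 (-1.65 to 0.38 for Prrx1 and -1.34 to 0.08 for Twist1). With 1 library per genotype the differences between gates were not tested. The Prrx1 value in the Tbx1 and Isl1 group and the Twist1 value in neuron-like cells changed sign with other ways of gating.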

How the results depend on the processing

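Over all cells, 52 of 54 alternative values of the 9 ratios moved by less than counting error. The exceptions were Hand2, at -0.49 with cells thinned to 1000 UMIs, and Twist1, at 0.038 with median-of-ratios scaling. Dlx1, Dlx5 and Dlx6 were past 1.5-fold in the main values; Dlx6 was just under it, at 0.58, without erythroid-like and cardiac muscle-like cells, an alternative chosen after seeing the data. At a 2-fold threshold 1 of the 9 genes was higher and 0 lower, beside 0.128% and 0.502% of all genes, and at a threshold of 0.32 on the log2 scale 4 were higher and 1 lower, beside 4.57% and 12.4%. The share of all genes past 1.5-fold was 6.88% higher and 11.3% lower with no UMI minimum, and 0.211% and 1.36% with at least 400 UMIs, a minimum that Dlx1, Dlx5 and Dlx6 do not reach, so that 0 of the 6 remaining genes were past 1.5-fold.

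Within gates, 221 alternative ratios moved by less than counting error and 23 moved further. A further 3 changed sign, which was counted only where the main value was past 1.5-fold. Prrx1 in the Tbx1 and Isl1 group came to 1.27 with 1 more marker required and 0.28 with cells thinned before gating, against -0.64, and Twist1 in neuron-like cells came to -0.49 with thinning. Thinning also gave 0.081 for Prrx1 in the Meox1 and Tcf15 group and -1.39 for Twist1 in the Tfap2 and Pdgfra or Ednra gate. The cause was not tested. No paired analysis was possible because there was 1 library per genotype, and for the same reason no library could be left out. Most cells that held one of the 9 genes held a single UMI of it.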
